A study of Homo sapiens with 6 samples.

Results

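The 41 genes described here encode the glucose transporters, the glycolytic enzymes, the proteins that handle lactate, the hypoxia-inducible factors (HIF) with their regulators, and a set of HIF target genes. They were selected by name from the Symbol column of a count table of 58051 Ensembl genes, which held each name once, and they fall into 6 role groups: 2 glucose transporters, 15 glycolytic enzymes, 4 genes of lactate handling, 4 kinases that direct carbon flow, 6 HIF factors and regulators, and 10 HIF targets with no enzyme of glycolysis among them. Poly(A)-selected RNA was sequenced from 2 groups of 3 libraries of HEK293T cells, which derive from human embryonic kidney and express the T antigen of SV40. The CTRL group had received the empty expression plasmid pcDNA3.1-, and the PPK1 group the same plasmid with ppk1, a bacterial gene for an enzyme that builds polyphosphate chains. Transfection was transient, by a lipid reagent, and was followed by 48 hours in OptiMEM before harvest, and the design text names the CTRL and PPK1 libraries of each letter (B, C and D) as matched biological replicates. A transfected culture holds cells with and without the plasmid, so a smaller share of responding cells and a smaller response per cell cannot be told apart, and the ppk1 transcript itself was not analysed here.

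Glycolysis splits glucose into pyruvate and yields ATP without oxygen, and the pyruvate can be reduced to lactate and exported. HIF is a dimer of an oxygen-labile alpha subunit (HIF1A or EPAS1) and a stable partner (ARNT). Prolyl hydroxylases (EGLN1, EGLN3) mark the alpha subunit in the presence of oxygen, VHL then directs its destruction, and in low oxygen the surviving dimer switches on most of the glycolytic genes together with genes of angiogenesis, mitophagy and collagen maturation. HEK293T cells, like other fast-growing lines, make much glycolytic enzyme RNA also in air.

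Library totals ran from 40851783 to 67122986 counts, and values are given as counts per 1000000 (CPM) of the TMM-scaled library total. The 7 genes taken as usual for the line were all detected, from VIM at 509 and 492 CPM (mean of CTRL and PPK1) down to PAX2 at 3.0 and 3.14 CPM. Of 10 markers of other cell types, 7 lay too low to be tested, and COL1A1 was the highest at 18.5 and 19.5 CPM. That is above PAX2, LHX1 (4.25 and 4.55 CPM) and KRT8 (18.3 and 19.2 CPM) of the line's own genes. The marker list of other cell types summed to 19.7 to 24.6 CPM in CTRL and 23.1 to 23.3 CPM in PPK1, with CD3E at 0 in the 3 CTRL libraries and UMOD at 0 in the 3 PPK1 libraries. ALB, the liver albumin gene, was called lower at 0.632 and 0.237 CPM, as was NEFL of the line's own genes (78.1 and 63.6 CPM), while KRT18 was called higher (43.8 and 53.3 CPM), and their part in the results was not tested.

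Among the 41 genes, the calls with PPK1 were mostly falls, and 1 glycolytic enzyme rose. Of the falls, 4 lay in the role group of HIF targets outside glycolysis, 1 was a glucose transporter and 1 a kinase. HIF targets also occur in the other role groups, such as LDHA and EGLN3, so the groups do not separate HIF targets from all other genes. Of the 39 genes that passed the filter on low counts, 6 fell and 1 rose at a Benjamini-Hochberg adjusted p below 0.05 in edgeR's quasi-likelihood test with the replicate letter as a block. Over all 19574 genes tested, 9.08% were called, 4.04% as higher (791 genes) and 5.04% as lower (986 genes). Upper-quartile scaling shifted that split to 422 higher and 933 lower. The falls were the collagen hydroxylase P4HA1, the ankyrin repeat gene ANKRD37, the mitophagy receptors BNIP3 and BNIP3L, the glucose transporter SLC2A3 and the pyruvate dehydrogenase kinase PDK1, and the rise was the enzyme TPI1. The calls depended on the pairing: in the fit without the block, 0 of the 39 genes were called (6 at an unadjusted p below 0.05), where 2.40% of all genes were. DESeq2 with the block called 3 of them (P4HA1, ANKRD37 and TPI1), against 4.36% of all genes that it gave an adjusted p. The plot of fitted changes shows the contrast between the groups of genes.

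**Figure D1:**
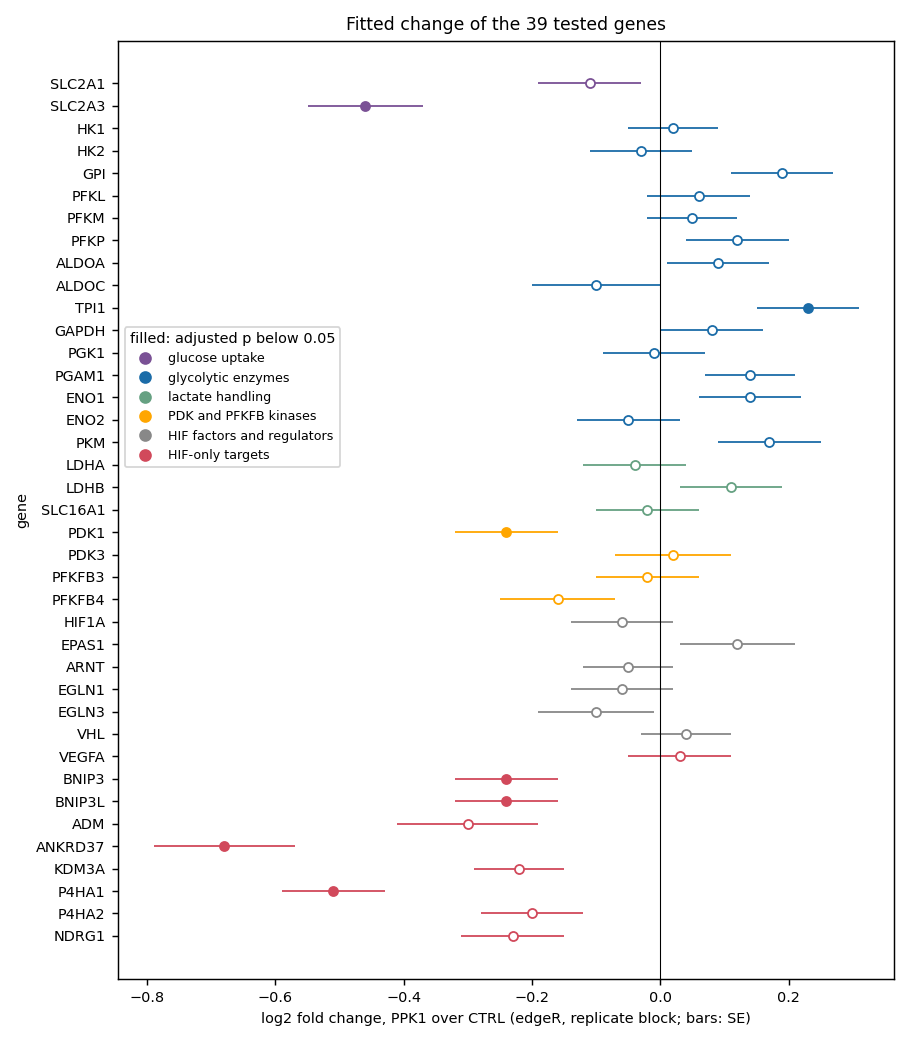
Fitted log2 fold change (PPK1 over CTRL, horizontal axis) of the 39 tested genes (vertical axis), coloured by role, with bars for the standard error and filled points for an adjusted p below 0.05. The HIF-only targets lie from -0.68 to 0.03 and the enzymes from -0.10 to 0.23.

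The HIF-only targets, the 10 HIF target genes that encode no part of glycolysis, held 4 of the 6 falls. Of the 9 that were tested, 4 were called lower, 0 were called higher, and 8 had a negative fitted change. Their median log2 fold change was -0.24 against 0.01 over all genes tested. The genes were chosen with earlier results of these data known, so these counts are a description and not an independent test. Lower calls numbered 0 without the block, 2 without B, 2 without C and 7 without D. They numbered 8 with GC and length offsets and 2 in DESeq2, with 0 higher in each of these fits. In the same order, these fits called 2.40%, 12.5%, 2.06%, 9.06%, 15.9% and 4.36% of all genes in either direction. P4HA1, a subunit of the prolyl hydroxylase that stabilises collagen, stood at 143, 108 and 126 CPM in CTRL B, C and D and at 102, 67.1 and 98.1 CPM in the PPK1 libraries of the same letters. All 3 PPK1 libraries lay below all 3 CTRL libraries. P4HA1 fell by 0.51 on the log2 scale (SE 0.08, edgeR adjusted p 3.6e-06), with pair changes of -0.49, -0.69 and -0.36. The adjusted p was 0.086 without the block, the one value past 0.05 among its 10 alternative fits, which ran from 2e-13 to 0.086.

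ANKRD37, a small ankyrin repeat protein gene known as a HIF target, was measured at 11.8, 6.16 and 7.07 CPM in CTRL B, C and D and at 6.84, 3.86 and 4.83 CPM in PPK1. The groups overlap, because PPK1 B lies above CTRL C, while each PPK1 library lies below the CTRL library of its own letter. ANKRD37 fell by 0.68 on the log2 scale (SE 0.11, edgeR adjusted p 1.5e-05), the largest fitted change of the 39 genes, and its adjusted p ran from 4.9e-08 to 0.15 (without the block) over the 10 alternatives. P4HA1 and ANKRD37 were the only 2 of the 39 genes called in the fit without replicate C, where 2.06% of all genes were. Exons of both genes, and of BNIP3L, PDK1 and TPI1, overlap another annotated gene on the opposite strand, and whether counting used the strand is not given in the sources used here.

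BNIP3 and BNIP3L encode receptors on the outer mitochondrial membrane that direct mitochondria to autophagy. BNIP3 was at 121, 96.7 and 100 CPM in CTRL B, C and D and at 100, 70.6 and 100 CPM in PPK1. Its level differed in pairs B and C only, since the pair D libraries were level (pair changes of -0.28, -0.45 and 0.00). BNIP3L was at 69.3, 56.5 and 59.7 CPM in CTRL and at 57.5, 43.5 and 56.9 CPM in PPK1, lower in each pair but with PPK1 B and D inside the CTRL range. Both fell by 0.24 on the log2 scale (SE 0.08, edgeR adjusted p 0.04 for each). Without replicate B the log2 fold changes were nearly as large (-0.23 for BNIP3 and -0.22 for BNIP3L) but not called in edgeR (adjusted p 0.076 and 0.083). Without replicate C they were -0.14 and -0.17, also not called (adjusted p 0.8 and 0.72), and without D they were -0.38 and -0.34 and called. Both were also not called without the block, and over the 10 alternatives the adjusted p ran from 2.5e-05 to 0.8 for BNIP3 and from 0.00087 to 0.72 for BNIP3L. In stretches of 50 bases, 9.92% of the BNIP3 transcript sequence also occurs in other genes.

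Of the 5 other HIF-only targets that were tested, 4 had negative fitted changes with an adjusted p of 0.054 to 0.1. These were ADM, which encodes the vasodilator peptide adrenomedullin (-0.30, SE 0.11, edgeR adjusted p 0.06), KDM3A, a histone demethylase (-0.22, SE 0.07, 0.054), NDRG1, a stress-induced gene (-0.23, SE 0.08, 0.067), and P4HA2, the paralogue of P4HA1 (-0.20, SE 0.08, 0.1). Single pairs moved these values: without C the log2 fold change of NDRG1 was -0.07 (edgeR adjusted p 0.93), and without B that of ADM was -0.18 (0.42). Without D, NDRG1 (-0.39, edgeR adjusted p 1.1e-05), ADM (-0.45, 0.0033) and KDM3A (-0.29, 0.0025) were called lower and P4HA2 was not (-0.23, 0.057). KDM3A was at 110 to 122 CPM in CTRL and at 88.8 to 104 CPM in PPK1, with no overlap of the groups. No overlap with PPK1 lower was found for P4HA1 and KDM3A among the 39 genes, against 12.6% of all genes tested. VEGFA, the angiogenic growth factor and a classical HIF target, stood apart: 178, 147 and 116 CPM in CTRL B, C and D became 160, 131 and 154 CPM in PPK1, so that pairs B and C differed by -0.15 and -0.16 and pair D by 0.41. CA9, a carbonic anhydrase often used as a hypoxia marker, had 1, 1 and 5 counts in CTRL and 5, 0 and 2 counts in PPK1, which is near the 3 counts that a count of 0 allows (0.0449 to 0.0734 CPM), and was not tested.

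**Figure D2:**
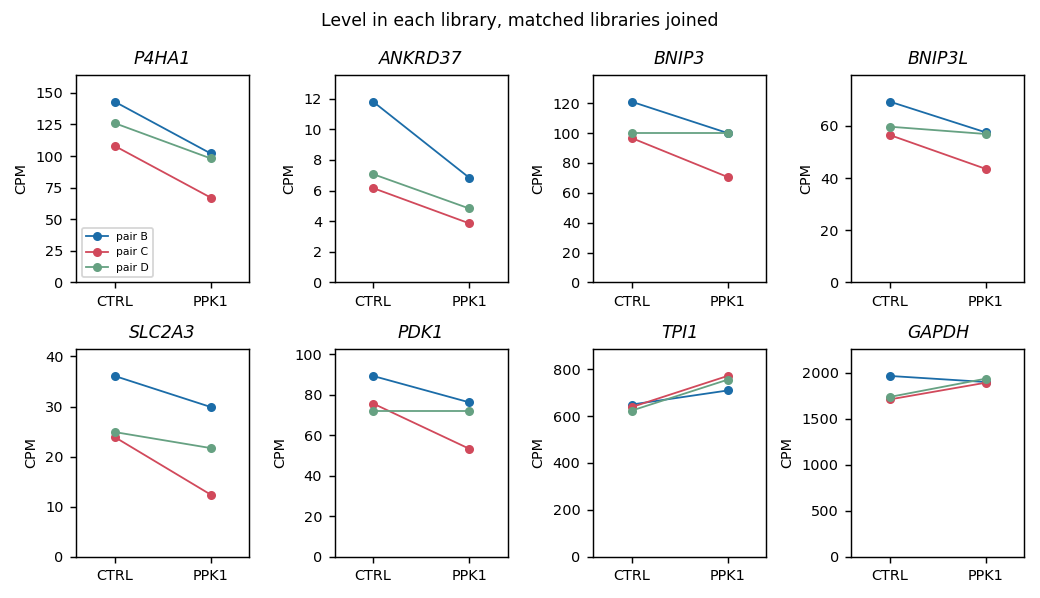
Level in CPM (vertical axis, from 0) of the 7 called genes and GAPDH in each CTRL and PPK1 library (horizontal axis), with lines joining the libraries of a letter. P4HA1 and ANKRD37 go down in all 3 pairs, BNIP3 and PDK1 are level in pair D, and TPI1 goes up in all 3 pairs.

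HIF binds a short core motif, ACGTG or GCGTG, so the 250 bases before the RefSeq start of each gene were searched for both on either strand. Promoters of 4 genes are printed to set the 2 strongest falls (ANKRD37 and P4HA1) beside LDHA, which had most ACGTG matches and no called change, and TPI1, the single rise. They come from RefSeq on GRCh38.p14 at chr4:185396591-185396840 (ANKRD37, plus strand), chr10:73096867-73097116 (P4HA1, minus strand), chr11:18394313-18394562 (LDHA, plus strand) and chr12:6867281-6867530 (TPI1, plus strand), and are written 5′ to 3′ along the gene with the matches in capitals.
ANKRD37: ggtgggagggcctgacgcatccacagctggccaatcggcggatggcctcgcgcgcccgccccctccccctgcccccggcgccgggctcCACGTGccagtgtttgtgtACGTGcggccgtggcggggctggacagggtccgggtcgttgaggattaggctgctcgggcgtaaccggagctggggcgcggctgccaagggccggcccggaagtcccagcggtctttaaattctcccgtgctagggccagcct
P4HA1: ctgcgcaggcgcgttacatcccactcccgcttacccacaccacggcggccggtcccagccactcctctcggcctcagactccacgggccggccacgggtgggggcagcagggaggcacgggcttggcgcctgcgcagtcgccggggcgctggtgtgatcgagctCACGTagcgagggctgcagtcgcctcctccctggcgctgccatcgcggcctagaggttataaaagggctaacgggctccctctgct
LDHA: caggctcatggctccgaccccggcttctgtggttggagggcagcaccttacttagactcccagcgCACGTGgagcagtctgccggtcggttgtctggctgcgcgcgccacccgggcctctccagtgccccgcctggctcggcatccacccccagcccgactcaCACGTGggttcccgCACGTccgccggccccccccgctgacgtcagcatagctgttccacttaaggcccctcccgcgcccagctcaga
TPI1: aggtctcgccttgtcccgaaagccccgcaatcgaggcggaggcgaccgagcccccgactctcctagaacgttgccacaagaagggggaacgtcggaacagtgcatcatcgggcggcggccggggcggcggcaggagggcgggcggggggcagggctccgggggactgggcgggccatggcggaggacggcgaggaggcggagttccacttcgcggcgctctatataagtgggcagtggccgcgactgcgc
The ANKRD37 window held 3 matches, P4HA1 1, LDHA 5 and TPI1 0, where a CACGTG holds 2 that overlap, 1 on each strand.

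RefSeq promoters were matched for 35 of the 41 genes, all but SLC2A3, SLC16A1, VHL, VEGFA, BNIP3L and NDRG1. ACGTG occurred in 14 of the 35 windows (40.0%) and either motif in 22 (62.9%), against 18.7% and 43.1% of all 27305 promoter windows of the same length. Either motif occurred in 6 of 7 HIF-only targets and in 9 of 15 enzymes. Windows with several matches belonged to called and uncalled genes alike: BNIP3 (6 matches) fell, and LDHA (5), ALDOC (5) and HK2 (3) were not called. PDK1 fell with 0 matches in its window. Only the 250 bases before the first listed start of each gene were searched, so sites at other starts or further away were not covered.

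Of the 15 glycolytic enzymes, TPI1 was the only one called, 0 were called lower, and the median log2 fold change was 0.08. The 6.67% called stood against 9.08% of all genes tested in either direction and 4.04% called higher. Both the calls and the median depended on the pairs: without D, HK2 (-0.23, edgeR adjusted p 0.028) and ALDOC (-0.30, 0.048) were called lower and 0 enzymes higher, with a median of 0.01. Without B, GPI (0.28, edgeR adjusted p 0.031) was the single enzyme called, as higher, with a median of 0.19. Without C no call was made (0 enzymes, also 0 by unadjusted p below 0.05), with a median of 0.05. The fits without D, B and C called 9.06%, 12.5% and 2.06% of all genes in either direction. TPI1, which interconverts the triose phosphates, was at 649, 638 and 623 CPM in CTRL B, C and D and at 709, 771 and 755 CPM in PPK1, with no overlap. It rose by 0.23 on the log2 scale (SE 0.08) with an edgeR adjusted p of 0.049, and was called in 3 of the 10 alternatives (adjusted p 0.021 to 0.55). Without B, C or D in turn TPI1 was at 0.27, 0.20 and 0.18 and not called. Of its transcript sequence, 12.6% also occurs in 2 TPI1 pseudogenes.

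Per length (CPM per kilobase of annotated exon), the highest enzyme levels in CTRL were those of GAPDH (606), ENO1 (368), ALDOA (247), TPI1 (236) and PKM (124). GAPDH, the dehydrogenase that oxidises the triose phosphate and a common reference gene, stood at 1967, 1712 and 1739 CPM in CTRL B, C and D and at 1901, 1894 and 1938 CPM in PPK1. Its log2 fold change was 0.08 (SE 0.08, edgeR adjusted p 0.57), and the pairs differed by -0.05, 0.15 and 0.16. ENO1, the main enolase, had the highest enzyme count level, with 2096, 1924 and 1799 CPM in CTRL and 2090, 2157 and 2144 CPM in PPK1 (log2 fold change 0.14, SE 0.08, adjusted p 0.3). GPI, which converts glucose 6-phosphate to fructose 6-phosphate (0.19, SE 0.08, edgeR adjusted p 0.11), and PKM, a pyruvate kinase gene (0.17, SE 0.08, 0.18), had an unadjusted p below 0.05. PGAM1, the phosphoglycerate mutase, was at 181 to 193 CPM in CTRL and 194 to 209 CPM in PPK1. PGAM1 and TPI1 were the 2 of 39 genes with PPK1 above CTRL and no overlap, against 13.0% of all genes tested. PGAM1 shares 30.5% and ALDOA 37.9% of their sequence with other genes, so both levels are uncertain.

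Several enzymes differed in sign between pairs. HK2, the inducible hexokinase, had 207, 158 and 126 CPM in CTRL B, C and D and 171, 144 and 159 CPM in PPK1, which gives pair changes of -0.28, -0.13 and 0.33. PFKL, the liver-type phosphofructokinase, had 204, 177 and 138 CPM in CTRL and 176, 176 and 183 CPM in PPK1. ALDOC and ENO2, the brain-type aldolase and enolase, were low beside ALDOA and ENO1 and had pair changes of -0.27, -0.29 and 0.30 for ALDOC and -0.22, -0.17 and 0.24 for ENO2. In all 4 genes the CTRL B library was the highest and CTRL D the lowest of its group. ALDOA, the main aldolase, had 1136, 931 and 837 CPM in CTRL and 1016, 1039 and 1007 CPM in PPK1. The remaining enzymes, HK1, PFKM, PFKP and PGK1, had log2 fold changes from -0.01 to 0.12, none called.

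Glucose enters through SLC2A1 and SLC2A3, which encode the transporters GLUT1 and GLUT3. SLC2A3 was at 36.1, 23.9 and 24.9 CPM in CTRL B, C and D and at 29.9, 12.4 and 21.7 CPM in PPK1, so the lowest value by far was PPK1 C. SLC2A3 fell by 0.46 on the log2 scale (SE 0.09, edgeR adjusted p 0.0006) with pair changes of -0.27, -0.94 and -0.20. Without replicate C it was -0.24 and not called (adjusted p 0.52), without the block the adjusted p was 0.39, and the 10 alternatives ran from 6.6e-10 to 0.52. Of the SLC2A3 transcript sequence, 16.0% also occurs in other genes, SLC2A14 first among them. SLC2A1, with the higher level per length (13.4 against 4.59 CPM per kilobase in CTRL), was at 73.9, 61.4 and 54.2 CPM in CTRL and at 62.3, 53.7 and 59.2 CPM in PPK1, which edgeR fitted as -0.11 on the log2 scale (SE 0.08, adjusted p 0.44). That value was -0.03 without B, -0.06 without C and -0.24 without D, where it was called lower (adjusted p 0.031).

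The next group holds the pyruvate dehydrogenase kinases PDK1 and PDK3 and the phosphofructokinase regulators PFKFB3 and PFKFB4. PDK1, the kinase that blocks pyruvate dehydrogenase, was at 89.2, 75.6 and 72.0 CPM in CTRL B, C and D and at 76.2, 53.3 and 72.0 CPM in PPK1. It fell by 0.24 on the log2 scale (SE 0.08, edgeR adjusted p 0.044). The difference came from pairs B and C (-0.23 and -0.50), was 0.00 in pair D, and was -0.11 and not called without replicate C (adjusted p 0.85, with 6.3e-05 to 0.85 over the 10 alternatives). PDK3, a second such kinase, was at 13.7 to 15.4 CPM in CTRL and 14.0 to 15.7 CPM in PPK1. PFKFB3 and PFKFB4 make and break the fructose bisphosphate that activates phosphofructokinase. PFKFB3 was at 95.3, 77.6 and 64.8 CPM in CTRL B, C and D and at 82.5, 74.5 and 75.5 CPM in PPK1. PFKFB4 had pair changes of -0.37, -0.32 and 0.26, and PFKFB3 of -0.21, -0.06 and 0.22, with neither called. The fitted change of PFKFB4, -0.16 over all pairs, was -0.04 without B, -0.07 without C and -0.37 without D, where it was called lower (edgeR adjusted p 0.00047).

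In lactate handling, 0 of 3 tested genes were called by edgeR (0 at an unadjusted p below 0.05) or by DESeq2. LDHB, the lactate dehydrogenase subunit of oxidative tissue, was at 1053, 1128 and 1484 CPM in CTRL B, C and D and at 1269, 1258 and 1382 CPM in PPK1. LDHA, the subunit of glycolytic tissue and a HIF target, was at 1319, 1126 and 1095 CPM in CTRL and at 1169, 1067 and 1190 CPM in PPK1. The CTRL libraries order these 2 genes oppositely, with B highest for LDHA and lowest for LDHB. LDHA made up 37.6%, 32.4% and 26.2% of the summed LDHA and LDHB level per length in CTRL B, C and D, and 30.7%, 28.9% and 29.3% in PPK1, all within the CTRL range. LDHB shares 29.4% of its sequence with other genes, so these shares are uncertain. The lactate exporter SLC16A1 was at 341, 405 and 488 CPM in CTRL and at 399, 392 and 417 CPM in PPK1. Its hypoxia-induced relative SLC16A3 had 15, 4 and 3 counts in CTRL and 13, 8 and 6 in PPK1 and was not tested.

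The RNA of the HIF system itself did not pass the test in either direction: 0 of 6 genes were called by edgeR (0 at an unadjusted p below 0.05) or by DESeq2. VHL, which targets the alpha subunits for destruction, was the highest of the 6 per length (45.9 CPM per kilobase in CTRL), at 209, 191 and 180 CPM in CTRL B, C and D and 201, 196 and 201 CPM in PPK1. HIF1A was at 83.9, 90.7 and 101 CPM in CTRL and at 83.8, 93.4 and 86.3 CPM in PPK1, which edgeR fitted as -0.06 on the log2 scale (SE 0.08, adjusted p 0.66). EPAS1 (0.12), ARNT (-0.05), EGLN1 (-0.06) and EGLN3 (-0.10) had the log2 fold changes given, none called. EGLN3, which HIF itself induces, was at 12.5 to 14.9 CPM in CTRL and 11.7 to 13.5 CPM in PPK1. HIF activity is set mainly by the stability of the alpha subunit protein, which RNA does not measure.

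The enzymes were set against the HIF-only targets pair by pair. The median pair change of the enzymes was -0.05, 0.10 and 0.26 in B, C and D, and that of the HIF-only targets was -0.27, -0.38 and -0.07. The enzyme median thus lay above the HIF-only median by 0.22, 0.48 and 0.33 (SD 0.13), and by 0.32 in the fit over all libraries. With replicate C left out it was 0.22 and with B or D left out 0.41 and 0.40. This difference is a description of these 2 lists and was not tested. In pair D all 15 enzymes were higher with PPK1, against 10 in pair C and 3 in pair B. Of all 19574 genes tested, 9758, 10346 and 10172 were higher in pairs D, C and B. In all 3 pairs alike, 3 enzymes were higher and 0 lower, while 6 of the 9 HIF-only targets were lower and 0 higher. Of all 19574 genes tested, 4430 were higher and 4137 lower in all 3 pairs. The same direction in all pairs was seen for 11 of the 39 genes (28.2%), against 43.8% of all genes tested.

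**Figure D3:**
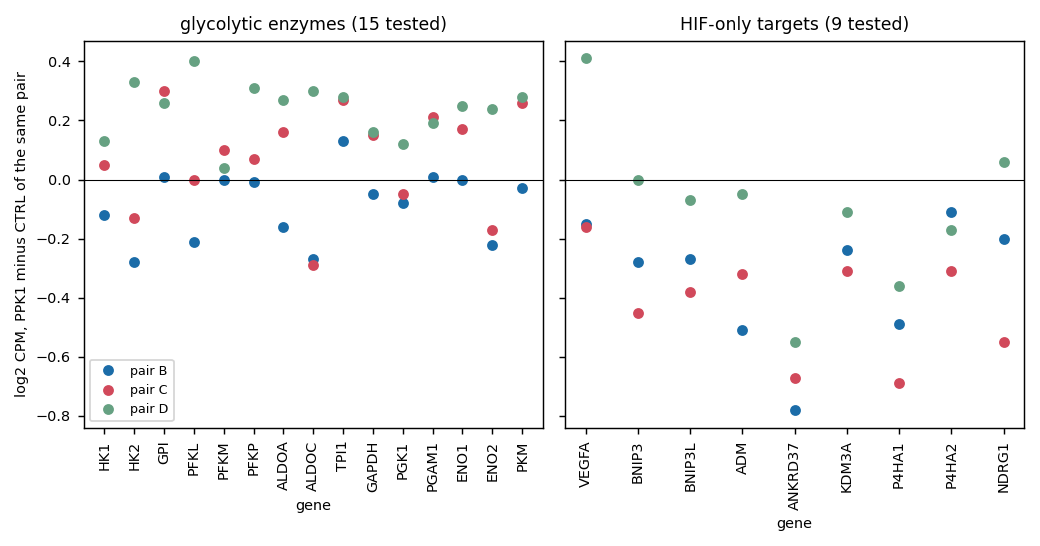
Change of log2 CPM between the PPK1 and CTRL library of each letter (vertical axis) for the 15 enzymes (left) and the 9 tested HIF-only targets (right). All 15 enzymes lie above 0 in pair D, and all 9 HIF-only targets lie below 0 in pairs B and C, with medians of -0.27 and -0.38.

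The empty vector libraries differed among themselves in these genes, and a pair change carries the level of its CTRL library. CTRL B was the highest of the 3 CTRL libraries for 36 of the 39 genes (92.3%), against 36.4% of all genes tested, the exceptions being LDHB, SLC16A1 and HIF1A. It was the highest of all 6 libraries for 28 of 39 genes (71.8%, against 18.5% of all genes), including all 9 tested HIF-only targets. CTRL D was the lowest of its group for 13 of 15 enzymes. The range among CTRL libraries reached 1.92-fold for ANKRD37, 1.81-fold for PFKFB4, 1.76-fold for ALDOC, 1.67-fold for ENO2 and 1.65-fold for HK2. The median range was 1.23-fold over the 39 genes, close to the 1.20-fold over all genes tested. It was 1.18-fold for the enzymes and 1.32-fold for the HIF-only targets. At the other end, TPI1 varied 1.04-fold and PGAM1 1.06-fold. In the PPK1 group, PPK1 C was the lowest library for all 9 HIF-only targets, and the lowest of all 6 libraries for 8 of them (88.9%, against 21.7% of all genes), the exception being VEGFA. Culture conditions of single libraries were not given, and their part in these differences was not tested.

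**Figure D4:**
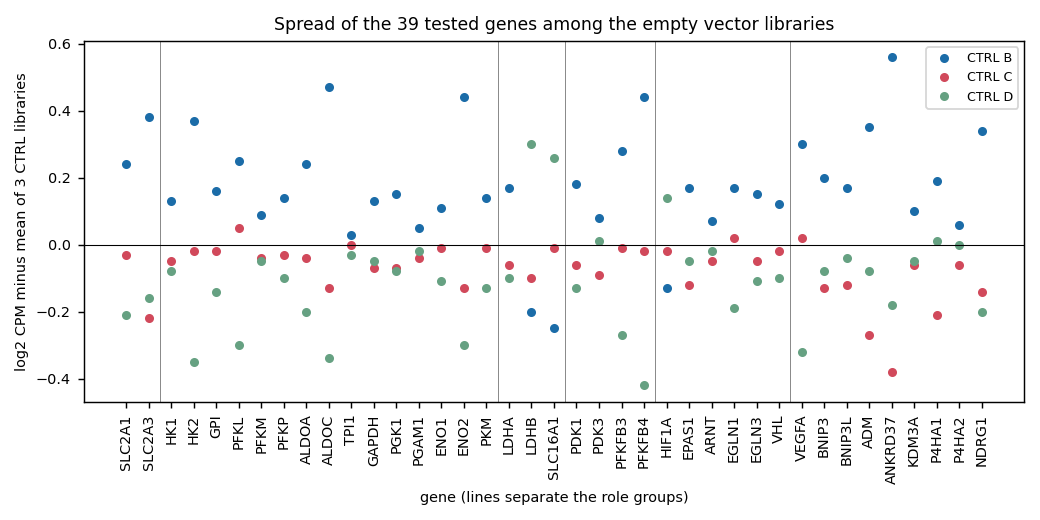
Deviation of each CTRL library from the mean of the 3 CTRL libraries (vertical axis, log2 CPM) for the 39 tested genes in role order (horizontal axis). CTRL B (blue) is the highest point for 36 genes, and the points spread most for ANKRD37, PFKFB4, ALDOC and ENO2.

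The summed levels show both patterns. The 15 enzymes added up to 8947, 7923 and 7518 CPM in CTRL B, C and D and to 8676, 8855 and 8811 CPM in PPK1. The PPK1 sums were close together and lay inside the CTRL range. The 10 HIF-only targets added up to 873, 692 and 685 CPM in CTRL and to 729, 525 and 683 CPM in PPK1, with PPK1 C lowest and PPK1 D level with CTRL D. The median coefficient of variation within a group was 9.22% in CTRL and 4.36% in PPK1 for the enzymes, and 13.8% and 16.8% for the HIF-only targets, against 9.71% and 7.48% for all genes tested.

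A second list of 35 genes covered the rest of glucose carbon metabolism, that is further isozymes, the pentose phosphate pathway, pyruvate import and pyruvate dehydrogenase. Of 28 tested, 2 were called higher and 0 lower, with a median log2 fold change of 0.09. The 7.14% called stood against 9.08% of all genes tested in either direction and 4.04% called higher. PGD, which makes NADPH in the pentose phosphate pathway, was at 155, 159 and 157 CPM in CTRL B, C and D and at 177, 203 and 181 CPM in PPK1, and it rose by 0.25 on the log2 scale (SE 0.07, edgeR adjusted p 0.021). PC, the pyruvate carboxylase that refills the citric acid cycle, was at 19.3, 21.1 and 17.8 CPM in CTRL and at 21.2, 25.6 and 23.1 CPM in PPK1, and it rose by 0.26 (SE 0.08, adjusted p 0.035). For both genes the groups do not overlap, as for 8 other genes of the list with PPK1 higher and 1 with PPK1 lower (SLC16A7), where 13.0% and 12.6% of all genes had no overlap. PC was not called without D (0.19, edgeR adjusted p 0.17). In edgeR without the block 0 of the 28 were called (6 at an unadjusted p below 0.05), and without replicate C 0 of 29 (2 at an unadjusted p below 0.05), while DESeq2 called 1.

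A further list of 35 hypoxia genes, with other HIF regulators and targets, had 4 of 31 tested genes called lower and 0 higher. The 12.9% called lower stood against 5.04% of all genes tested, and the median log2 fold change was -0.06. The list was chosen with earlier results of these data known, so this share is not an independent check on the HIF-only targets. HILPDA, a lipid droplet protein, was at 88.2, 56.3 and 48.7 CPM in CTRL B, C and D and at 54.1, 37.8 and 45.2 CPM in PPK1, and fell by 0.47 on the log2 scale (SE 0.08, edgeR adjusted p 9.6e-05). PLOD2, a lysyl hydroxylase of collagen, was at 136, 124 and 130 CPM in CTRL and at 116, 92.4 and 111 CPM in PPK1, and fell by 0.30 (SE 0.07, adjusted p 0.0058). LOX, the enzyme that cross-links collagen, was at 25.7, 24.9 and 23.5 CPM in CTRL and at 21.7, 19.4 and 20.6 CPM in PPK1, and fell by 0.27 (SE 0.08, adjusted p 0.027). In this list 6 genes had no overlap with PPK1 higher (EGLN2, HIF1AN, ARNT2, AK4, NARF and PLOD1, none called) and 4 with PPK1 lower (PLOD2 and LOX, both called, and CA12 and MXI1, not called), where 13.0% and 12.6% of all genes tested had none. BHLHE40, a transcriptional repressor, was at 140, 84.9 and 79.9 CPM in CTRL and at 98.4, 59.2 and 80.2 CPM in PPK1, and fell by 0.34 (SE 0.08, adjusted p 0.0039), with pair changes of -0.50, -0.52 and 0.00 and a fitted change of -0.53 without D. Among the others, EGLN2 (0.21), ARNT2 (0.21), AK4 (0.17), DDIT4 (-0.14), STC2 (-0.02) and ERO1A (0.00) were not called. In edgeR without the block 0 of the 31 were called (7 at an unadjusted p below 0.05), DESeq2 called 3, and without replicate C HILPDA alone was called (adjusted p 0.036).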

How the data were processed

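RNA sequencing counts of 6 HEK293T libraries (3 CTRL, 3 PPK1) were used. The authors deposited 1 table of whole-number raw counts per Ensembl gene, and 0 columns were left unmapped. The submitters' processing notes name bcl2fastq 2.20, Trimmomatic, STAR, HTSeq, edgeR, DESeq, Cufflinks and Cuffdiff with no roles. The genome build, annotation, strand setting and treatment of multiply mapped reads are not given in the sources used here. Library totals were 40851783 to 67122986 counts.

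Differential expression was tested with edgeR 4.0.16 in R 4.3.3 (filterByExpr with minimum count 10, TMM scaling, glmQLFit and glmQLFTest), with Benjamini-Hochberg adjustment over all 19574 genes tested. The replicate letter was a block because the design text of the series calls the libraries of a letter matched. Across genes, deviations from the group means correlated at 0.109 (B), 0.135 (C) and 0.0476 (D) within letters, and at -0.12 to -0.00506 between letters. Deviations in a group cancel out for each gene, so the negative values follow partly from the positive ones. The paired fit rests on few residual degrees of freedom and a shared dispersion (47.5 prior degrees of freedom, 8.75 without the block). Standard errors are the absolute log2 fold change over the square root of F, and pair changes use log2 CPM with a prior count of 2. Alternatives were no block, RLE and upper-quartile scaling, no filter, a mean of at least 50 counts, GC and length offsets, DESeq2 1.42.0, and leaving out each letter. The test was checked on simulated data that had no letter effect and a spread shared by genes of like level. That check therefore does not cover the pairing or a gene's own spread. Exon length, shared 50-base stretches and overlaps come from GENCODE release 29 and promoters from RefSeq (GRCh38.p14). The genes and lists were chosen with earlier results of these data known. Values in every library were planned for the called genes, the highest of each role group and the called genes of the 2 further lists. Outside that rule, they are also given for GAPDH, HK2, PFKL, ALDOA, LDHA, SLC16A1 and HIF1A, and as counts for CA9 and SLC16A3. Other genes are named to account for the whole set. P-values weigh a change against a spread between these libraries that is mostly shared across genes, not against each gene's own spread. SLC2A3, for example, had an SE of 0.09 with pair changes of -0.27, -0.94 and -0.20.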

Additional observations from a re-analysis of the deposited data

How the results depend on the processing

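Low counts kept CA9 and SLC16A3 from being tested. Without the replicate block, 0 of the genes were called higher (1 with it), 0 lower (6 with it), 0 in the further carbon list (2) and 0 in the further hypoxia list (4). With the pairs left out in turn, the higher calls ran from 0 to 1, the lower calls from 2 (without C) to 13 (without D), the carbon calls from 0 (without C) to 3 (without B, 1 of them lower) and the hypoxia calls from 1 (without C) to 10 (without D). The higher call without B was GPI (adjusted p 0.031), not TPI1, whose call was lost (0) with RLE scaling, upper-quartile scaling and a mean of at least 50 counts, where 7, 5 and 4 genes were lower. DESeq2 gave 2 lower calls and 1 carbon call. The carbon calls were 1 with upper-quartile scaling, no filter and the stricter filter. GC and length offsets gave 11 lower, 6 carbon and 8 hypoxia calls, of the last 2 higher and 6 lower. Over all genes the calls (1777) were 470 without the block, 3113 with the offsets, 754 in DESeq2, and 2435, 406 and 1803 without B, C and D. All genes called by the paired edgeR fit kept their sign in the 10 alternatives, in 42 of 70 fits with the call. Genes not called changed sign in 26 of 320 fits. With GC and length offsets these were HK1 (-0.02), PFKL (-0.02), PGK1 (0.04), SLC16A1 (0.03) and HIF1A (0.02), and with upper-quartile scaling HK1 (-0.0035) and PDK3 (-0.0047). With pairs left out, log2 fold changes ran from -0.06 to 0.09 for HK1, -0.23 to 0.10 for HK2, -0.13 to 0.20 for PFKL, -0.02 to 0.21 for ALDOA, -0.30 to 0.0019 for ALDOC, -0.09 to 0.03 for PGK1, -0.22 to 0.03 for ENO2, -0.15 to 0.02 for LDHA, -0.14 to 0.07 for SLC16A1, -0.04 to 0.06 for PDK3, -0.16 to 0.08 for PFKFB3, -0.21 to 0.03 for EGLN1, -0.03 to 0.10 for VHL and -0.18 to 0.13 for VEGFA. The cause of these changes was not tested.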
